A study of Mus musculus with 12 samples.

Results

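Connexins are the subunits of gap junction channels, and the 7 connexin genes described here were Gjb1, Gjc3, Gja1, Gjb6, Gjb2, Gjd2 and Gjc1. They were found in the deposited expression table by symbol, and all 7 were present among 23354 symbols and passed the filter of a mean of at least 0.5 FPKM (fragments scaled by transcript length and sequencing depth) that left 14075 symbols for testing. Expression was measured by RNA-seq in whole cortex of 12 C57BL/6 mice at postnatal day 16, with 3 mice in each of 4 groups. The Dnmt1 CKO mice were Olig1cre/+;Dnmt1flox/flox and their littermate controls Olig1+/+;Dnmt1flox/flox, and the Dnmt3a CKO mice were Olig1cre/+;Dnmt3aflox/flox with Olig1+/+;Dnmt3aflox/flox littermates. All 4 groups thus carried floxed alleles, and the CKO groups alone carried cre, which stands at the Olig1 locus. By staining, the paper reports each enzyme, in its own CKO line, absent from oligodendrocyte nuclei and still present in those of astrocytes and neurons. The recombination rate that it gives is a lower bound and does not state complete loss. Every CKO mouse also had 1 Olig1 allele with cre and every control had none, so within a line the cre allele and the loss of the methyltransferase cannot be told apart.

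Glial cells of the cortex are joined by connexins into a network in which astrocytes couple to each other and to oligodendrocytes. Through these channels potassium released by active axons, water and small metabolites spread from the myelin into astrocytes. Oligodendrocytes make Gjb1 (connexin 32) and Gjc3 (connexin 29), astrocytes make Gja1 (connexin 43), Gjb6 (connexin 30) and some Gjb2 (connexin 26), and neurons make Gjd2 (connexin 36). Gjb2 is also made by the leptomeninges, and Gjc1 (connexin 45) by some neurons and by cells of vessel walls. Dnmt1 copies CpG methylation onto newly made DNA strands and Dnmt3a sets new methylation. Methylation itself was not among the values analysed here.

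Of the 7 genes, both oligodendrocyte connexins were lower in Dnmt1 CKO cortex and the other 5 did not pass the test. Gjb1 stood at 38.1% of its control mean and Gjc3 at 60.5%. In the Dnmt3a line none of the 7 passed the test. The coding sequence lies in 1 exon in Gjb1, Gja1, Gjb6, Gjb2 and Gjc1, and in 2 exons in Gjc3 and Gjd2.

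The genes differ in the DNA before their start sites, where CpG methylation can act. Gjb1 (X:101376378-101385629, plus strand) has 4 start sites in the RefSeq promoter table and Gjc3 (5:137953461-137963098, minus strand) and Gja1 (10:56377330-56402513, plus strand) have 1 each, all on GRCm38, the assembly also called mm10. The 250 bases before the outermost and the innermost Gjb1 start sites, before the Gjc3 start site and, for an astrocyte gene, before the Gja1 start site are shown 5′ to 3′ on the gene's strand, with each CpG in capitals.
Gjb1, outermost start, X:101376126-101376375: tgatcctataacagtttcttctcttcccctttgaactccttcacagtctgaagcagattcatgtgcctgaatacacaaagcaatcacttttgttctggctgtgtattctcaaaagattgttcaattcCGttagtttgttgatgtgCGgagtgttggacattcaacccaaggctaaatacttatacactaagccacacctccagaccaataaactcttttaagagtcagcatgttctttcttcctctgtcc
Gjb1, innermost start, X:101383482-101383731: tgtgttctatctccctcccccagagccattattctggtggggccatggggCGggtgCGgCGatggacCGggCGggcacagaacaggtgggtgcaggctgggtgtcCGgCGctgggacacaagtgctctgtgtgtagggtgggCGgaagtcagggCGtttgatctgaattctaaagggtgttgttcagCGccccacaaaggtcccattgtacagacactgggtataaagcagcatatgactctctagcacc
Gjc3, 5:137963099-137963348: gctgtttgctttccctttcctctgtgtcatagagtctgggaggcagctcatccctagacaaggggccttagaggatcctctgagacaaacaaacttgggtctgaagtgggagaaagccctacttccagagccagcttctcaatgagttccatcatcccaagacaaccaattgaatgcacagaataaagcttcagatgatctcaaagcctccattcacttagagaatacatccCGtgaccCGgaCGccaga
Gja1, 10:56377050-56377299: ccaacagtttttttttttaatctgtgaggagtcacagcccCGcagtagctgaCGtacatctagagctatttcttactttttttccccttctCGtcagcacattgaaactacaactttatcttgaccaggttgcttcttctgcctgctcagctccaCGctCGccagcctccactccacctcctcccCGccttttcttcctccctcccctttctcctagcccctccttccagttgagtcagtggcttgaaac
The outermost Gjb1 window held 2 CpG and the innermost one 10, with 1 and 4 in the 2 windows between them that are not shown, the Gjc3 window held 3 and the Gja1 window 6, where the median over the same 250 bases of 32851 RefSeq promoters was 6 and the quartiles were 2 and 16. None of the 4 windows shown overlapped an exon in the GENCODE M21 annotation. The cores bound by SOX factors, the family that includes Sox10 of oligodendrocytes, were searched on both strands as ACAAAG and ACAAT, which do not overlap each other in the windows. The cores were not alike in the 4 Gjb1 windows. Each of the 2 shown held 1 of each core, at positions -176 and -135 from the outermost start site and at -57 and -46 from the innermost, while of the 2 between them the outer one held ACAAT alone and the inner one held neither. The Gjc3 and Gja1 windows held neither, and 38.8% of all such windows held at least 1 of the cores. A match of letters is a description and shows no binding.

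**Figure D1:**
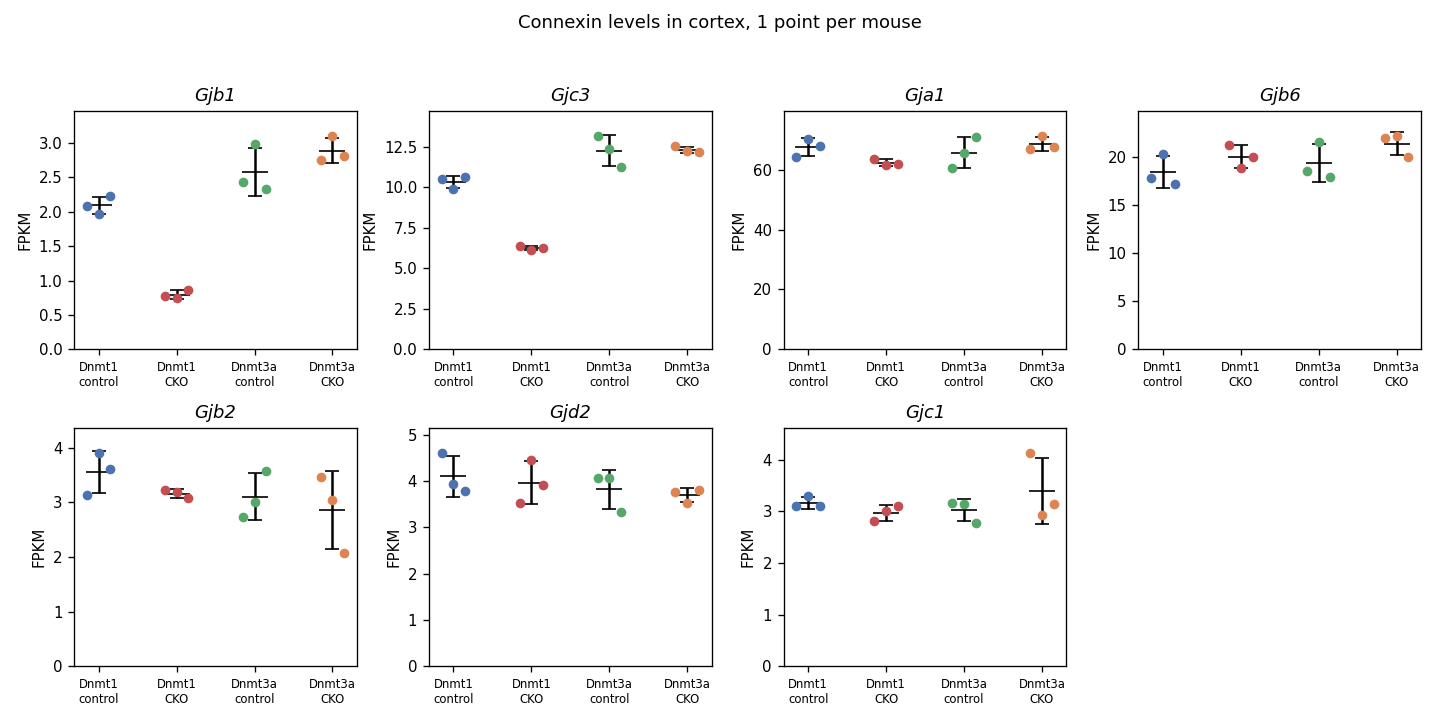
FPKM of the 7 connexin genes in the 4 groups, with 1 point per mouse, and the group mean and SD as a bar and whiskers; all axes start at 0. The Dnmt1 CKO points lie below all other points for Gjb1 and Gjc3, with Gjb1 at 0.743 to 0.870 FPKM against 1.97 to 2.23 in the Dnmt1 controls.

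Levels of different genes were compared on the FPKM scale, which is per transcript length. Gja1 was the highest connexin in every group, with means of 67.5, 62.4, 65.6 and 68.6 FPKM in Dnmt1 control, Dnmt1 CKO, Dnmt3a control and Dnmt3a CKO cortex. Gjb6 followed at means from 18.4 to 21.4 FPKM and Gjc3 at means from 6.26 to 12.3 FPKM, and the values of these 3 genes did not overlap within any group. Gjd2, Gjb2 and Gjc1 had means between 2.86 and 4.10 FPKM, and most neighbours in that range overlapped. Gjb1 was the lowest of the 7 in both groups of the Dnmt1 line, with all its values below those of Gjc1. In both Dnmt3a groups its values overlapped with those of its neighbours in the order. No value of any of the 7 genes was 0.

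Several measures of the libraries bear on the results. Dnmt1 stood at 9.78 to 10.6 FPKM in the Dnmt1 controls, against 7.26 to 9.11 in the CKO mice. Dnmt3a was at 28.7 and 31.1 FPKM in 2 of the Dnmt3a controls and at 13.6 to 15.4 in the CKO mice. In the library labelled Dnmt3a control replicate 2 it was at 16.9 FPKM, close to the CKO range and far from its own group, and the log2 fold changes of the connexins in this line are given with and without it. Its Olig1 level was 49.8 FPKM beside 44.1 and 48.4 in the rest of its group and 30.6 to 38.8 where cre was present. In the Dnmt1 line Olig1 was at 42.0 to 50.9 FPKM in controls, against 18.4 to 21.9 in CKO mice. All 6 neuron markers were expressed, at a sum of 1759 to 1928 FPKM over the libraries, and in the Dnmt1 line none of them passed the test, like the 6 endothelial and the 5 choroid plexus markers. The median log2 fold change there was 0.03 for the neuron list and -0.18 for the endothelial list, where all 6 values were below 0. Of 6 microglial markers C1qa rose there. In the Dnmt3a line no marker of any list passed (all by limma). The summed choroid plexus markers ran from 3.21 to 419 FPKM, and both extremes came from the Dnmt3a CKO group. In whole cortex, fewer cells of a type and less RNA per cell cannot be told apart. Whole-cortex values also do not show in which cells Dnmt1 or Dnmt3a fell.

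Gjb1, the connexin of myelin that is mutated in X-linked Charcot-Marie-Tooth disease, was measured at 2.09, 1.97 and 2.23 FPKM in the 3 Dnmt1 controls, against 0.781, 0.743 and 0.870 FPKM in the 3 Dnmt1 CKO mice. Every CKO value lay under every control value, with a wide gap and little spread in either group. The log2 fold change was -1.29 (SE 0.0841, 95% interval -1.50 to -1.08, adjusted p = 0.0024 by the moderated test of limma, log2(FPKM + 0.1) scale). A pseudocount of 1 in place of 0.1 gave -0.78, since Gjb1 is low. Gjb1 lies on the X chromosome, and the libraries differed in Xist, the RNA of the inactive X. Xist was at 49.4 FPKM in Dnmt1 control replicate 3, at 0.031 and 0.045 in the other Dnmt1 controls and at 1.69 to 1.85 in all 3 Dnmt1 CKO libraries. Gjb1 differed little between the Dnmt1 control with Xist at 49.4 FPKM and the others, and with Xist (log2) added as a covariate its log2 fold change was -1.30 (adjusted p = 0.0058 with limma). Only 1 of these libraries had high Xist and the 3 CKO libraries shared a middle level, so this fit is a weak check.

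Gjc3, whose protein lies in the inner myelin membrane of thin fibres, stood at 10.5, 9.91 and 10.6 FPKM in the Dnmt1 controls, against 6.35, 6.16 and 6.26 FPKM in the CKO mice. The groups were far apart for their spread, and the 3 CKO values lay close together. Its log2 fold change was -0.72 (SE 0.0424, 95% interval -0.82 to -0.61, limma adjusted p = 0.0018). The fall of Gjc3 was thus smaller than that of Gjb1 on the log2 scale, and the log2 level of Gjb1 minus that of Gjc3 was -2.25 ± 0.0412 (SD, n = 3) in controls and -2.83 ± 0.0973 in CKO mice, with no overlap. An exact two-sided permutation test of that shift gave p = 0.1, the smallest that 3 against 3 mice allow, and 0.1 after Benjamini-Hochberg adjustment over 4 such differences within libraries of this line. None of the 4 had overlap, so each p stood at that floor and the test tells no more than the lack of overlap. Further differences described below were not tested, and the adjustment does not cover them.

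Of all rows tested, 3.15% passed the test in the Dnmt1 line and 2.3% passed it downward, which were 444 and 324 rows. Without Dnmt1 control replicate 2 or Dnmt1 CKO replicates 1, 2 or 3 these counts fell to 206 and 150, 199 and 145, 266 and 199, and 216 and 154 in that order. Of the 7 connexin genes 2 passed, both downward, and Gjb1 had the 32nd and Gjc3 the 89th lowest log2 fold change among the rows that fell.

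Both oligodendrocyte connexins fell beside the myelin genes, and Gjc3 by less than they did. All 11 oligodendrocyte markers (Mbp, Mag, Mog, Mobp and others) fell, with log2 fold changes from -2.45 to -1.38 and a median of -1.96, where the median of all rows tested was -0.02. Gjc3 had a smaller fold change than every one of the 11. Gjb1 at -1.29 stood next to Cnp, the marker that fell least, at -1.38, and their order is not settled, since with a pseudocount of 0.01 both were at -1.38 and the CKO means stood at 38.1% of control for Gjb1 and 38.3% for Cnp. In the list of newly formed oligodendrocytes (Gpr17, Bmp4, Enpp6, Bcas1, Itpr2) 4 of 5 fell with a median of -0.56, and 1 of 6 progenitor markers fell with a median of -0.11. Gjc3 lay within the range of the newly formed list, where 2 of 5 genes fell more, and Gjb1 below all 5. The part of cell number in these values was not tested.

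**Figure D2:**
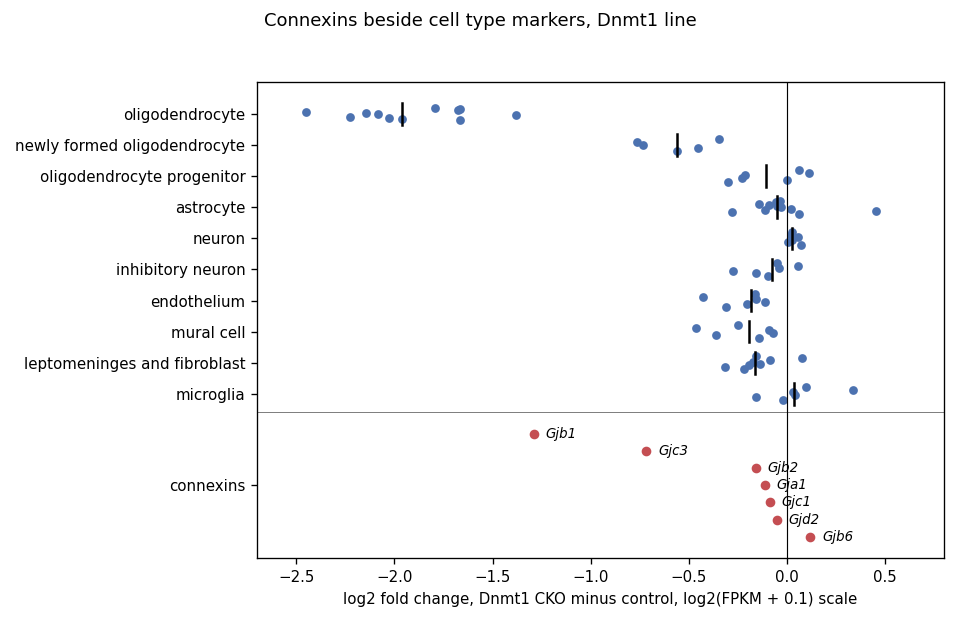
Log2 fold change of Dnmt1 CKO against control, on the log2(FPKM + 0.1) scale, for the tested genes of 10 cell type marker lists (blue points, with the list's median as a black line) and for the 7 connexin genes (red points). On this scale Gjb1 at -1.29 lies next to the oligodendrocyte marker that fell least, Cnp at -1.38, and Gjc3 at -0.72 lies between these markers and 0, and the other 5 connexin genes lie between -0.16 and 0.12.

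Each connexin was also set against the mean log2 level of the 11 oligodendrocyte markers in the same library. In the Dnmt1 line the log2 level of Gjb1 minus that mean was -4.32 ± 0.154 (SD, n = 3) in controls and -3.69 ± 0.151 in CKO mice. For Gjc3 it was -2.07 ± 0.115 in controls and -0.87 ± 0.131 in CKO mice, and for both genes the mice did not overlap. In the Dnmt3a line the means of the control and CKO groups were -4.39 and -4.26 for Gjb1 and -2.18 and -2.20 for Gjc3. The exact permutation test gave p = 0.1 for Gjb1 and for Gjc3, the smallest possible with 3 against 3 (also 0.1 after adjustment over the 4 tested differences). The pseudocount of 0.1 adds to the shift of Gjb1, whose own log2 fold change was -1.38 with 0.01. Against the newly formed markers Gjc3 moved from 0.16 ± 0.0922 in controls to 0.01 ± 0.0247 in CKO mice, a smaller step but also without overlap. The difference of Gjb1 from those markers was -2.10 ± 0.132 in controls and -2.82 ± 0.120 in CKO mice, again without overlap.

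**Figure D3:**
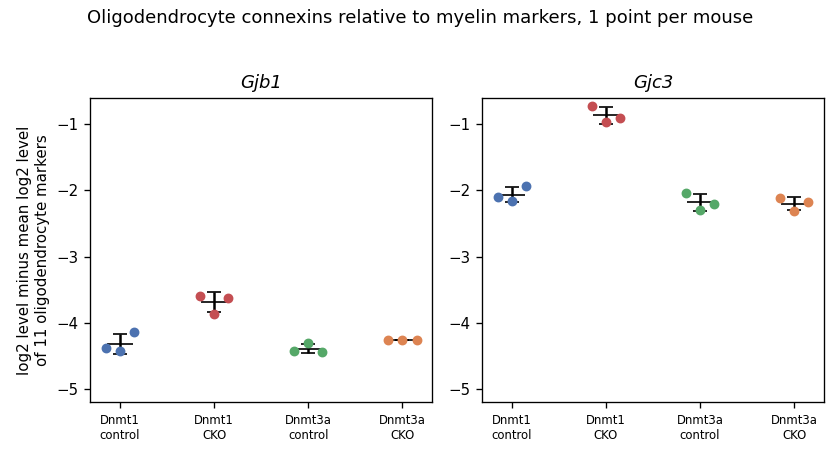
Log2 level of Gjb1 and Gjc3 minus the mean log2 level of 11 oligodendrocyte markers in the same library, with 1 point per mouse and the group mean and SD. The mean of Gjc3 is at -0.87 in Dnmt1 CKO mice and between -2.20 and -2.07 in the other groups, and that of Gjb1 is at -3.69 against -4.39 to -4.26.

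Among all tested genes, the 3 whose centred log2 profile over the 12 libraries came closest to that of Gjb1 were Lpar1, Ppap2c and Cnp, at root mean square differences of 0.122, 0.127 and 0.132 (Gjb1's own deviation was 0.690). The nearest to Gjc3 were Nfasc and Phldb1, at 0.0910 and 0.0971 against an own deviation of 0.397. Cnp is an enzyme of myelin membranes and Nfasc the adhesion molecule neurofascin of the node and its flanks. The likeness is a description over 12 libraries. The nearest genes of the other 5 connexins, whose own deviations were from 0.0777 to 0.215, were Mrpl46 for Gja1, Rin2 for Gjb6, Casp6 for Gjb2, Lrrc16a for Gjd2 and Rcor2 for Gjc1, at 0.0357, 0.0454, 0.111, 0.0768 and 0.0559.

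The astrocyte connexins were close to their control levels in Dnmt1 CKO cortex. Gja1, the chief channel between astrocytes, was at 64.2, 70.2 and 68.0 FPKM in the controls, against 63.7, 61.4 and 62.0 FPKM in the CKO mice. The highest CKO value lay just under the lowest control value, so the groups did not overlap, but the step was small. The log2 fold change was -0.11 (95% interval -0.21 to -0.01, limma adjusted p = 0.28). With Gjb1 and Gjc3, Gja1 made 3 of 7 genes without overlap, where 20.8% of all rows tested had no overlap in this line.

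Gjb6, the second astrocyte channel, was at 17.8, 20.3 and 17.2 FPKM in the controls, against 21.2, 18.8 and 20.0 FPKM in the CKO mice. The groups overlapped and the log2 fold change was 0.12 (95% interval -0.07 to 0.31, limma adjusted p = 0.53). Within libraries Gjb6 minus Gja1 on the log2 scale was -1.84, -1.79 and -1.98 in the controls and -1.58, -1.70 and -1.63 in the CKO mice. All CKO values of that difference were the higher ones (exact permutation p = 0.1, the smallest possible, and the same after adjustment over the 4 tested differences). Of 11 astrocyte markers, Gfap, the filament of reactive astrocytes, rose and Ntsr2, a neurotensin receptor, fell in this line, and the list's median log2 fold change was -0.05. Its summed level was 912 to 948 FPKM in controls and 899 to 920 FPKM in CKO mice.

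Gjb2 was at 3.13, 3.90 and 3.61 FPKM in the Dnmt1 controls, against 3.22, 3.19 and 3.07 FPKM in the CKO mice. The groups overlapped, with a log2 fold change of -0.16 (95% interval -0.38 to 0.06, limma adjusted p = 0.49). The summed leptomeninges and fibroblast markers were at 63.7 to 73.5 FPKM in controls and 58.1 to 67.5 FPKM in CKO mice, and none of the 8 passed the test in limma. The difference of Gjb2 from the mean of those markers was -0.55 ± 0.107 (SD, n = 3) in controls and -0.56 ± 0.131 in CKO mice. Gjb2 (14:57098600-57104702) and Gjb6 (14:57123303-57133611) lie next to each other on the minus strand, with 18600 bases between them, and their levels differed by over 2 units on the log2 scale in every library.

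The 2 connexins of neurons and vessels overlapped between the groups of the Dnmt1 line. Gjd2 (2:114009601-114013619, minus strand), the channel of electrical synapses, was at 4.60, 3.93 and 3.78 FPKM in controls, against 3.53, 4.45 and 3.91 FPKM in CKO mice (log2 fold change -0.05, 95% interval -0.33 to 0.23, limma adjusted p = 0.89). The CKO values lay on both sides of the middle control. Of 6 inhibitory neuron markers Pvalb fell, and the median of the list was -0.07. The 5′ end of Gjd2 overlaps the antisense transcript A530058N18Rik over at most 57 exon bases, and reads there cannot be told apart without strand.

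Gjc1 (11:102799579-102819700, minus strand) was at 3.09, 3.29 and 3.10 FPKM in controls, against 2.80, 3.01 and 3.11 FPKM in CKO mice. The values overlapped at their edge, with a log2 fold change of -0.09 (95% interval -0.25 to 0.07, limma adjusted p = 0.61). Rgs5 and Acta2, 2 of 6 mural cell markers, fell, and the median log2 fold change of that list was -0.19. Its summed level was 43.9 to 47.8 FPKM in controls and 35.1 to 38.2 FPKM in CKO mice, and the part of these cells in the Gjc1 values was not tested.

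The summed FPKM of Gjb1 and Gjc3, mostly Gjc3, was taken as a percent of the summed FPKM of Gja1 and Gjb6. It was 15.3%, 13.1% and 15.1% in the Dnmt1 controls and 8.39%, 8.60% and 8.70% in the Dnmt1 CKO mice. The CKO mice lay at about the same low value, and all were below the lowest control. In the Dnmt3a line the percent was 19.7, 17.6 and 15.3 in controls and 17.2, 16.4 and 17.1 in CKO mice, which overlapped with or without the 17.6 of Dnmt3a control replicate 2.

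In the Dnmt3a line 0 of the 7 connexin genes passed the test, with limma calling 0.0142% of all rows, 2 in number (4 without Dnmt3a control replicate 1 or Dnmt3a CKO replicate 1, 5 without Dnmt3a control replicate 3), and 0 of the 7 had an unadjusted p under 0.05. Without the library labelled Dnmt3a control replicate 2 again 0 of the 7 passed. Gjb1 was at 2.43, 2.99 and 2.33 FPKM in the controls, against 2.76, 3.10 and 2.81 FPKM in the CKO mice. The highest control lay above 2 of the CKO values. The log2 fold change was 0.16 (95% interval -0.11 to 0.44, limma adjusted p = 0.77), and without Dnmt3a control replicate 2, the highest of the controls, it was 0.27 (95% interval 0.03 to 0.50, limma adjusted p = 0.72). The groups then no longer overlapped, but leaving out the highest control makes that easier. The share of all rows without overlap in this smaller set of libraries was not computed. Xist was at 49.4 FPKM in Dnmt3a control replicate 3, at 46.2 in Dnmt3a CKO replicate 3 and under 0.1 in the other 4 libraries of the line, and Gjb1 was not set apart in these 2 libraries.

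Gjc3 was at 13.1, 12.4 and 11.2 FPKM in the Dnmt3a controls, against 12.5, 12.2 and 12.2 FPKM in the CKO mice, with the CKO values inside the control range. The log2 fold change was 0.01 with a 95% interval of -0.14 to 0.16 (limma adjusted p = 0.99), and 0.02 without Dnmt3a control replicate 2. That interval excludes a fall of the size measured for Gjc3 in the Dnmt1 line.

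Gja1 was at 60.4, 65.7 and 70.7 FPKM in the Dnmt3a controls, against 67.1, 71.1 and 67.6 FPKM in the CKO mice. Gjb6 was at 18.6, 21.6 and 17.9 FPKM in the controls, against 22.0, 22.2 and 20.0 FPKM in the CKO mice. For both astrocyte genes the groups overlapped, with log2 fold changes of 0.07 and 0.15 (limma adjusted p = 0.81 and 0.72). Without Dnmt3a control replicate 2, the highest control for Gjb6, the log2 fold change of Gjb6 was 0.23 (95% interval 0.08 to 0.38, limma adjusted p = 0.72), while that of Gja1 remained 0.07. The Gjb6 groups then did not overlap, again with the highest control left out and with no share over all rows computed. The summed astrocyte markers were at 920 to 940 FPKM in these controls and 986 to 1058 FPKM in the CKO mice, and none of the 11 passed the test in limma.

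Gjb2 had its widest spread in the Dnmt3a CKO mice, at 3.46, 3.04 and 2.08 FPKM beside 2.73, 3.0 and 3.57 FPKM in the controls. The low value was that of Dnmt3a CKO replicate 3, whose leptomeninges and fibroblast markers summed to 44.6 FPKM, the lowest of all libraries. Igf2 and Dcn weighed most in that low sum, at 22.0 and 5.39 FPKM against 31.0 and 7.73 in Dnmt3a CKO replicate 1. Lum and Col1a1 were higher than in replicate 1. The log2 level of Gjb2 minus the mean of the leptomeninges and fibroblast markers was -0.78 in Dnmt3a CKO replicate 3, against -0.22 and -0.49 in Dnmt3a CKO replicates 1 and 2. The part of these cells in the Gjb2 values was not tested. Gjd2 was at 4.07, 4.06 and 3.34 FPKM in the controls, against 3.77, 3.53 and 3.81 FPKM in the CKO mice. Gjc1 was at 3.15, 3.14 and 2.77 FPKM in the controls, against 4.13, 2.93 and 3.14 FPKM in the CKO mice, where replicate 1 stood apart. The limma adjusted p-values of Gjb2, Gjd2 and Gjc1 were 0.89, 0.94 and 0.81. Without Dnmt3a control replicate 2 their log2 fold changes were -0.15, 0.01 and 0.18 (limma adjusted p from 0.85 to 0.998). With all libraries none of the 7 genes separated the groups in this line, where 12.8% of all rows had no overlap.

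**Figure D4:**
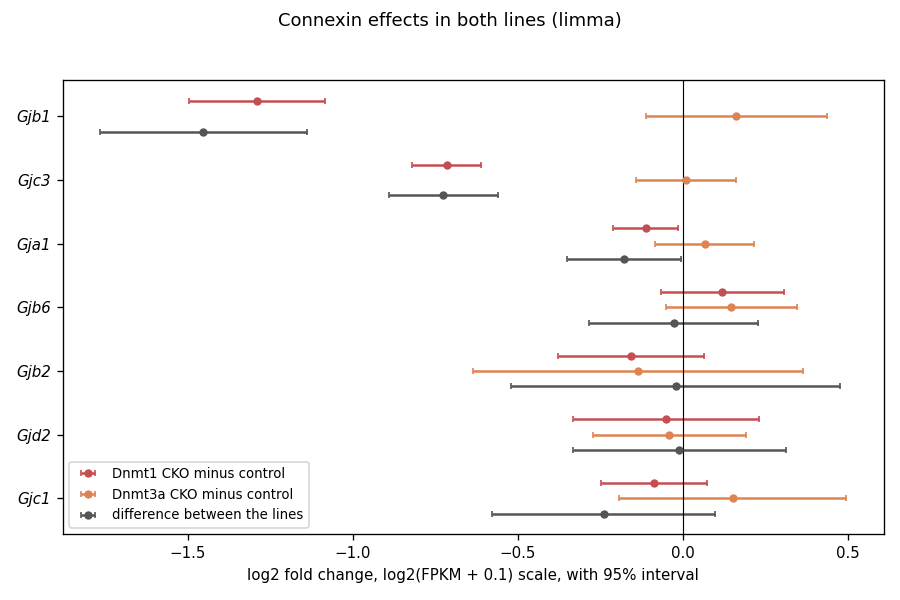
Log2 fold changes with 95% intervals from limma for the 7 connexin genes, for Dnmt1 CKO against control (red), Dnmt3a CKO against control (orange) and the difference between the lines (grey). The red and grey intervals of Gjb1 and Gjc3 lie far below 0, with Gjb1 at -1.29 and -1.45, and their orange intervals include 0.

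Whether a connexin responded differently in the 2 lines was asked with an interaction term fitted to the 12 libraries together. Of all rows, 2.13% passed and 1.83% passed with the lower effect in the Dnmt1 line. Of the 7 connexin genes Gjb1 and Gjc3 passed, both with the lower effect in the Dnmt1 line. The difference of Gjb1 was -1.45 (SE 0.142, limma adjusted p = 0.00027) and that of Gjc3 was -0.72 (SE 0.0756, limma adjusted p = 0.00045). Gja1 had a difference of -0.18 (limma adjusted p = 0.45), and for Gjb6, Gjb2, Gjd2 and Gjc1 the differences were -0.03, -0.02, -0.01 and -0.24 (limma adjusted p from 0.64 to 0.99). Without the library labelled Dnmt3a control replicate 2 Gjb1 and Gjc3 passed again, at -1.56 and -0.73, and the differences of Gja1, Gjb6, Gjb2, Gjd2 and Gjc1 were -0.18, -0.11, -0.0027, -0.06 and -0.27. For the other 5 genes a p that misses the threshold does not show equal effects in the lines.

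The 2 sets of controls were not alike for the oligodendrocyte connexins. Gjb1 was at 123% of its Dnmt1 control mean in the Dnmt3a controls and Gjc3 at 118%, with no overlap for either. Without Dnmt3a control replicate 2 the values were 114% and 118%, again with no overlap. For the other 5 of the 7 genes the controls overlapped, and with all libraries 12.6% of all rows tested had no overlap. The summed oligodendrocyte markers were at 1500.0 to 1766 FPKM in Dnmt1 controls and 1887 to 2236 FPKM in Dnmt3a controls. Line and litter cannot be told apart here, so each CKO group was read against its own controls.

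Of 22 further genes of gap junctions and of glial potassium, chloride and water handling, 10 passed the filter on low values. In the Dnmt1 line 2 of the 10 passed the test, both downward, and they were Kcnj10 and Kcnj16. Of all rows tested there, 3.15% passed and 2.3% passed downward. Of the 12 other connexins listed only Gja4, a connexin of vessel endothelium, was high enough to test, and it had a log2 fold change of -0.08 (limma adjusted p = 0.82). The pannexins Panx1 and Panx2, which form channels to the outside of the cell, had log2 fold changes of -0.09 and 0.02, and the scaffold gene Tjp1 had -0.12. None of these 4 genes passed in limma in either line.

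Kcnj10 encodes Kir4.1, the inward rectifier that takes up potassium in astrocytes and oligodendrocytes. It was at 26.2, 25.8 and 25.4 FPKM in the Dnmt1 controls, against 17.4, 19.5 and 17.2 FPKM in the CKO mice, with a wide gap between the groups. The log2 fold change was -0.52 (SE 0.0520, limma adjusted p = 0.0088). Its partner subunit Kcnj16 was at 4.65, 4.28 and 4.17 FPKM in controls, against 3.15, 3.35 and 3.30 FPKM in CKO mice, also apart (log2 fold change -0.41, limma adjusted p = 0.042). The call of Kcnj16 was lost without any 1 of Dnmt1 control replicates 1 and 2 and Dnmt1 CKO replicates 1, 2 and 3, with limma adjusted p-values from 0.11 to 0.19. In the Dnmt3a line Kcnj10 was at 27.5, 25.7 and 29.4 FPKM in controls, against 26.4, 27.8 and 28.4 FPKM in CKO mice, and Kcnj16 overlapped as well. Without Dnmt3a control replicate 2 the log2 fold change of Kcnj10 there was -0.05 (limma adjusted p = 0.85).

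The other genes of that list did not pass in the Dnmt1 line. Aqp4, the water channel of astrocyte endfeet, had a log2 fold change of -0.28 (limma adjusted p = 0.14) and Clcn2, a chloride channel, and its partners Mlc1 and Hepacam had 0.14, -0.14 and 0.06. In the test of the difference between the lines 2 of the 10 genes passed, Kcnj10 at -0.52 (limma adjusted p = 0.0076) and Kcnj16 at -0.49 (limma adjusted p = 0.043), where 2.13% of all rows passed. The call of Kcnj16 was lost in this test without any 1 of Dnmt1 control replicate 1, Dnmt1 CKO replicates 1 and 3, Dnmt3a control replicates 1 and 2 and Dnmt3a CKO replicate 2, with limma adjusted p-values from 0.11 to 0.14.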

How the data were processed

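Cortex RNA was sequenced as TruSeq poly(A) libraries, from about 250 ng of total RNA per mouse. Per the authors, TopHat placed the reads on mm10 and Cufflinks computed expression, and the deposited values are FPKM per gene symbol. These are not read counts, so no count test was run, and the read depth behind each value is unknown. The steps between low values gave relative depths of 0.863 to 1 over the 12 libraries. Of 23850 deposited rows, 302 exact duplicates were removed. For a symbol with several rows, the row with the highest mean was used.

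The 14115 rows whose mean reached 0.5 FPKM were put on the log2(FPKM + 0.1) scale, and limma 3.58.1 (lmFit and eBayes with trend, run under R 4.3.3) set the CKO libraries of a line against the controls of that line. Adjusted p-values are Benjamini-Hochberg over all rows tested, and a gene was called at 10% FDR. The difference between the lines was an interaction over 12 libraries. A fold change on this scale understates the change of low genes. The fits were tested on simulated data.

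The connexin genes, the marker lists and the further genes were chosen with earlier results of these data known, and some genes are not reported here. Genes are named by a rule: the 7 connexins, further gap junction and glial transport genes that were called or touch a connexin's result, Dnmt1, Dnmt3a, Olig1 and Xist as checks, and the genes with the nearest profile to each connexin. Marker genes named beside them were named after their values were seen.

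Positions are from GENCODE M21 (GRCm38) and the sequences before start sites from RefSeq on GRCm38.p6. Of 50-base words in the transcripts, Gjc3 shared 1.44% with other genes, Gja1 0.0957%, Gjc1 0.0396% and the other 4 connexins 0%. All other steps ran in Python 3.11.15 (pandas 2.3.3, numpy 2.4.6, matplotlib 3.10.9). Other settings tried were a minimum mean of 0.1 or 1 FPKM or none, pseudocounts of 0.01 and 1, eBayes without trend or robust, median ratio or quantile scaling, values summed per symbol, a replicate block, Xist as a covariate, a single model of 4 groups, a 5% FDR, and leaving out every library in turn. The comparison of the 2 sets of controls without Dnmt3a control replicate 2 was added after seeing the data.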

Additional observations from a re-analysis of the deposited data

Results flagged for a closer look

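For 4 genes the CKO effect differed between the lines by limma's interaction test. The effect in the Dnmt1 line minus that in the Dnmt3a line, on the log2 scale, was -1.452 for Gjb1, -0.7249 for Gjc3, -0.5173 for Kcnj10 and -0.4857 for Kcnj16. For all 4 the Dnmt1 CKO mice lay below their controls and the Dnmt3a CKO mice overlapped with theirs. Of all rows tested, 20.8% had no overlap in the Dnmt1 line and 12.8% in the Dnmt3a line. The test of Kcnj16 missed the threshold without any 1 of Dnmt1 control replicate 1, Dnmt1 CKO replicates 1 and 3, Dnmt3a control replicates 1 and 2 and Dnmt3a CKO replicate 2, with adjusted p-values from 0.11 to 0.14.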

How the results depend on the processing

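The count of the 7 connexins called was the same under every alternative run, 2 in the Dnmt1 line (20 alternatives), 0 in the Dnmt3a line (20) and 2 for the difference (25). With each library left out, the log2 fold change in the Dnmt1 line ran from -1.35 to -1.25 for Gjb1 and from -0.75 to -0.70 for Gjc3. Of the further 10 genes, 2 were called in the Dnmt1 line and 2 for the difference, and with a library left out these counts ran from 1 to 2 and from 1 to 3, with Kcnj16 the gene lost where the count was 1 and Aqp4 the gene gained without Dnmt3a control replicate 3 (limma adjusted p = 0.031). In the Dnmt1 line the count rose to 3 with the robust fit, through Aqp4 (limma adjusted p = 0.067), and with a minimum mean of 0.1 FPKM or no filter, through the connexin Gja5, at a log2 fold change of -0.66 (limma adjusted p = 0.059 and 0.083). Same-numbered libraries did not deviate together over all rows tested (correlations from -0.0792 to 0.0352, and 1 of 12 libraries correlated best with its own number). This does not exclude that the numbers pair the mice. Dnmt3a control replicate 3 and Dnmt3a CKO replicate 3 were alike in high Xist (49.4 and 46.2 FPKM). They were also alike in low Ttr, a choroid plexus marker (4.57 and 1.94 FPKM). In the Dnmt1 line Xist was high in control replicate 3 alone. A replicate block left 2 connexins called in the Dnmt1 line, with log2 fold changes of -1.29 for Gjb1 and -0.72 for Gjc3, took the calls over all rows there from 444 to 162, and left 1 of the further genes called in the Dnmt1 line and 1 for the difference, without Kcnj16 (adjusted p = 0.22 and 0.11).

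Some values near 0 changed sign, none of them called, and the cause was not tested. With a library left out these were, in the Dnmt1 line, Gjd2 (-0.136 to 0.0327), in the Dnmt3a line Gjc3 (-0.0512 to 0.0614), Gjb2 (-0.284 to 0.0712), Gjd2 (-0.132 to 0.00625) and Kcnj10 (-0.0473 to 0.0474), and for the difference Gjb6 (-0.109 to 0.0433), Gjb2 (-0.228 to 0.127) and Gjd2 (-0.0960 to 0.0811). Median ratio scaling gave -0.00926 for Kcnj10 in the Dnmt3a line and 0.00483, 0.00972 and 0.0210 for the differences of Gjb6, Gjb2 and Gjd2. Quantile scaling gave -0.00919 for Kcnj10 and 0.00919 and 0.0138 for the differences of Gjb6 and Gjd2, and the Xist covariate -3.2e-05 for Kcnj10 and 0.00345 for the difference of Gjd2.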

Other observations

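Gja5, the connexin of arterial endothelium, was under the filter of 0.5 FPKM and was not tested above. It was at 0.401, 0.422 and 0.384 FPKM in the Dnmt1 controls and at 0.259, 0.208 and 0.192 FPKM in the Dnmt1 CKO mice, without overlap, and at 0.250, 0.196 and 0.341 FPKM in the Dnmt3a controls and 0.271, 0.402 and 0.242 FPKM in the Dnmt3a CKO mice. With a minimum mean of 0.1 FPKM its log2 fold change in the Dnmt1 line was -0.66 (limma adjusted p = 0.059), and the difference between the lines did not pass (-0.82, limma adjusted p = 0.27). None of the 6 endothelial markers passed the test in the Dnmt1 line in limma; the summed level of that list was 52.5 to 56.9 FPKM in controls and 43.2 to 48.9 FPKM in CKO mice.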
